A study of Mus musculus with 15 samples.

Results

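The 38 genes described here code for enzymes of glycolysis and of the tricarboxylic acid (TCA) cycle and for the proteins that connect them. They were chosen by name from the textbook pathways, as 14 glycolytic enzymes, 2 lactate dehydrogenase subunits, 4 genes of the pyruvate dehydrogenase complex, the 4 pyruvate dehydrogenase kinases, pyruvate carboxylase (Pcx), and 13 genes of the TCA cycle. They are 38 of the 26628 genes in the deposited table, and all 38 were among the 15213 genes that passed the filter on low values. RNA-seq libraries were made from whole cerebellum (Ce) or whole striatum (St) of male Hsd:ICR mice, an outbred stock, labelled as 6 weeks of age. The mice came from 1 line bred for high voluntary wheel running (Hi) or from 1 unselected control line (Co), and mice of both lines had access to a wheel for 7 days before dissection. The groups were CeCo (n = 4), CeHi (n = 4), StCo (n = 4) and StHi (n = 3), and the study had left out a further StHi sample before deposition on the basis of a principal component analysis. With 1 line of each kind, the effect of selection and genetic drift between lines cannot be told apart, and the distance run was not matched between the lines. The labels do not say whether samples of the same number from Ce and St came from the same mouse.

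Glycolysis splits glucose into pyruvate in the cytosol, with hexokinase and phosphofructokinase as its regulated entry steps. Pyruvate is either reduced to lactate by lactate dehydrogenase or carried into the mitochondrion, where the pyruvate dehydrogenase complex turns it into acetyl-CoA for the TCA cycle. The pyruvate dehydrogenase kinases phosphorylate that complex and switch it off, so that they set how much pyruvate enters the cycle. In brain, glucose is the main fuel, many steps have isoenzymes with different use by neurons and glia, and aldolase C is the zebrin II antigen of cerebellar Purkinje cell stripes.

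Within a region, the members that differed between the lines past the threshold in the main fit were kinases of pyruvate dehydrogenase. Pdk1 was lower in StHi than in StCo by 1.39-fold, and Pdk4 was higher in CeHi than in CeCo by 1.52-fold. Averaged over both regions, Pdk1 was lower and Pdk4 and Suclg2 were higher in Hi. The call of Pdk4 in Ce was lost in 9 of 15 fits that left out 1 library, and that of Suclg2 in 12 of 15. None of the 14 glycolytic enzymes, 2 lactate dehydrogenase subunits or 4 pyruvate dehydrogenase complex genes passed in the main fit. Of all genes tested, 5.94% passed between lines in Ce, 2.66% in St and 8.48% over both regions. With lists this short, an absence of calls does not set them apart from all genes. Between the regions, 28 of the 38 members differed, a share of 73.7% where 80.2% of all genes tested differed. Hexokinase 2 (Hk2) was 5.52-fold higher in Ce, Pdk2 and Aldoc were each 2.44-fold higher in Ce, and Pfkl, Ldha and Pdk1 were 1.62-fold, 1.6-fold and 1.52-fold higher in St.

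The values are normalized counts: fragments per gene divided by a size factor for the library, not divided by gene length, and here scaled further by trimmed mean of M-values (TMM) factors. A library held between 32909415 and 47485504 fragments in genes. Differences are log2 fold changes from limma, fitted over all 15 samples, with P-values adjusted for the false discovery rate (FDR) over 15213 genes and a threshold of 0.05. The members' coefficient of variation within a group had a median of 5.37% in StCo, 5.86% in StHi, 4.57% in CeCo and 4.53% in CeHi. Together the members held 1.35% ± 0.0281 (SD, n = 4) of the normalized counts in CeCo and 1.36% ± 0.0679 (n = 4) in CeHi. In striatum they held 1.22% ± 0.0616 (n = 4) in StCo and 1.22% ± 0.0564 (n = 3) in StHi. Tissue markers lay on the side of the labels, since 6 of 6 granule cell and 5 of 5 Purkinje cell markers passed as higher in Ce, and 8 of 8 medium spiny neuron markers as higher in St. Among the Ce libraries, CeHi replicate 3 stood apart toward St on the first principal component, at -66.7 where the other Ce libraries lay between -89.6 and -83.1. Without this library, 2 members passed between lines in Ce (Hk2 and Pdk4), 1 in St (Pdk1) and 29 between regions. The shares of all genes in that fit were 4.65%, 3.08% and 80.6%. In whole tissue, fewer cells of a type and less RNA per cell cannot be told apart.

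The first question was which members differed between the selected and the control line. In Ce, 1 of 38 members passed (Pdk4, higher in Hi), where 5.94% of all genes tested passed (2.94% higher and 2.99% lower in Hi). In St, 1 of 38 passed (Pdk1, lower in Hi), where 2.66% of all genes passed (1.49% higher and 1.17% lower in Hi). The members' share of 2.63% was below the background in Ce and near it in St.

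Pdk1, a kinase known as a target of hypoxia-inducible factor, had normalized counts of 2283, 2248, 1923 and 2138 in StCo and 1680.2, 1433 and 1519.9 in StHi. The StHi samples all lay below the StCo samples, with group means of 2148 ± 162 and 1544 ± 125 (SD, n = 4 and n = 3). The log2 fold change in St was -0.48 (SE 0.072, limma FDR-adjusted P-value 0.000826). In Ce the counts were 1246, 1106, 1244 and 1237 in CeCo and 1133, 1141, 1210.0 and 1238 in CeHi, and the groups overlapped (log2 fold change -0.03, 95% interval -0.17 to 0.11, adjusted P-value 0.837). The difference between those line effects, Ce minus St, was 0.44 on the log2 scale (SE 0.10) and did not pass by limma (adjusted P-value 0.0551). It passed by edgeR and by DESeq2 on recovered fragments, with adjusted P-values of 0.0492 and 0.00343.

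Pdk4, the kinase that fasting raises in muscle and heart, had counts of 392, 378, 682 and 396 in CeCo and 663, 799, 706 and 577 in CeHi. CeCo replicate 2, at 682, lay among the CeHi samples, and the other 3 CeCo samples lay below all of them. The log2 fold change was 0.61 (SE 0.17, limma adjusted P-value 0.0454), the largest of any member between lines. The call was lost by edgeR (adjusted P-value 0.0653), with plain moderation (0.066) and with each region fitted alone (0.0928), and leaving out any 1 of 9 libraries ended it, with adjusted P-values from 0.0541 to 0.126. Those libraries were CeCo replicates 0, 1 and 3, CeHi replicates 0, 1 and 2, StCo replicates 1 and 2, and StHi replicate 1. Leaving out CeCo replicate 2 raised the log2 fold change to 0.81, with an adjusted P-value of 0.000542.

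In St, Pdk4 had counts of 507, 596, 555 and 691 in StCo and 979.5, 882 and 755 in StHi. The StHi samples all lay above the StCo samples, and the log2 fold change of 0.57 (SE 0.18) did not pass by limma (adjusted P-value 0.123). It passed in 2 of 12 alternative fits with all samples. These were DESeq2 on recovered fragments (adjusted P-value 0.0412) and limma with each region fitted alone (0.0402), where Pdk4 did not pass in Ce. Of 15 limma fits that left out 1 library, it passed in 1, without CeCo replicate 2 (0.0132). Averaged over both regions, Pdk4 was 1.5-fold higher in Hi (log2 fold change 0.59, SE 0.12, limma adjusted P-value 0.007). The difference between its line effects in Ce and St was 0.04 with a 95% interval of -0.49 to 0.56.

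The other kinases did not pass between lines. Pdk2, the most abundant kinase per length here, had counts of 8706, 8409.5, 7298 and 8489.7 in CeCo and 7389, 7569, 7477 and 7899 in CeHi. In St they were 3394, 3319, 3319.8 and 2937 in StCo and 3393, 3055 and 3219 in StHi, and the lines overlapped in both regions. Its log2 fold change was -0.11 in Ce (adjusted P-value 0.323) and -0.01 in St (adjusted P-value 0.982). For Pdk3, an X-linked kinase, the values were -0.09 and -0.11 (adjusted P-values 0.451 and 0.517). The plot of counts by sample shows these genes with Hk2 and Suclg2.

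**Figure D1:**
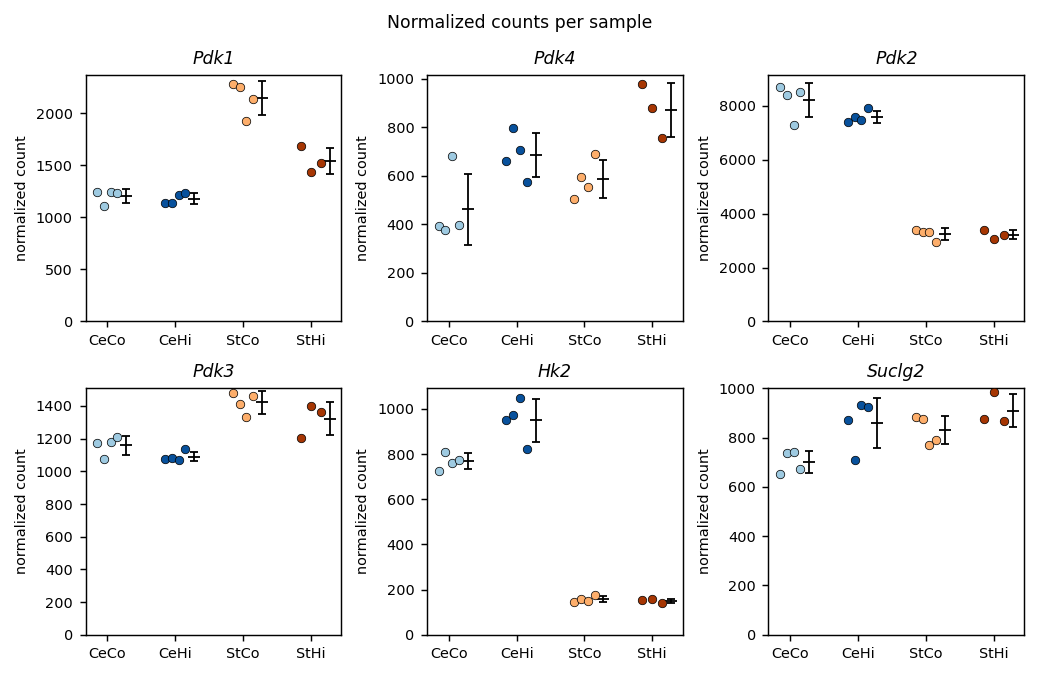
Normalized counts (vertical axis, from 0) of the pyruvate dehydrogenase kinases, Hk2 and Suclg2 in each sample of the groups CeCo, CeHi, StCo and StHi, with the mean and SD of each group beside its points. The 3 StHi points for Pdk1 lie below all StCo points, and CeCo replicate 2 lies among the CeHi points for Pdk4.

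Pdk1 lies on chromosome 2 (chr2:71873224-71903858, plus strand) and Pdk4 on chromosome 6 (chr6:5483351-5496309, minus strand) in GRCm38. No annotated gene overlaps either. The bases before their starts are shown with those of Hk2 and Ldha, which had large region differences. Pdk1, Hk2 and Ldha are textbook targets of hypoxia-inducible factor, and Pdk4 is shown as the other kinase that passed. Capitals mark ACGTG, a form of the core of the hypoxia response element, and its reverse complement CACGT. Where both overlap they form the E-box CACGTG. The sequences are from RefSeq (GRCm38.p6), 5′ to 3′ on the gene's strand, and end at the last base before the annotated start.
Pdk1, chr2:71872974-71873223: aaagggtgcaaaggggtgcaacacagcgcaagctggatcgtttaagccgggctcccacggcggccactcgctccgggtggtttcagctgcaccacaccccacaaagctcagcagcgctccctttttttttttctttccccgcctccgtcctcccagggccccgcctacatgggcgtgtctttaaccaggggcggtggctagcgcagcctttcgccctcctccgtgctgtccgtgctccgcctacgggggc
Pdk4, chr6:5496310-5496528: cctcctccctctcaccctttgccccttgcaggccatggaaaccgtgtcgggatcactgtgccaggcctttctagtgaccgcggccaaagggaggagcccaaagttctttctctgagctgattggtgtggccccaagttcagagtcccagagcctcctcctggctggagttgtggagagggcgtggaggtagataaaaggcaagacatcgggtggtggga
Hk2, chr6:82774455-82774704: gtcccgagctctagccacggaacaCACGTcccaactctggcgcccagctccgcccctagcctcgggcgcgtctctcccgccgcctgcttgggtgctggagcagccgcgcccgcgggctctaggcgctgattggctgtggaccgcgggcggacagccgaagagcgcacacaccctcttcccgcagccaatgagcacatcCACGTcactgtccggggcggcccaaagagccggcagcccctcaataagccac
Ldha, chr7:46845554-46845803: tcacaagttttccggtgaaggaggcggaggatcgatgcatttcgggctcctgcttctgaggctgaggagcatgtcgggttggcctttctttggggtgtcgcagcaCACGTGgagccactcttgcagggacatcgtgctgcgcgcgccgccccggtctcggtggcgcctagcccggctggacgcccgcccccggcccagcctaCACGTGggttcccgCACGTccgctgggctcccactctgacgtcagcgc

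The stretches shown for Pdk1 and Pdk4 held no match to ACGTG on either strand. That of Hk2 held 2 and that of Ldha held 5, counting overlapping matches on both strands. The other form of the core, GCGTG, was not searched or marked, and the stretches shown for Pdk1 and Pdk4 each contain it. Pdk1 and Ldha each have 2 start windows in RefSeq, of which 1 is shown. Of 37 members with a promoter window of 300 bases (250 before and 50 after the start; Idh3a was not matched), 16 held ACGTG in at least 1 window. By window, 23 of 55 member windows held it, beside 19.6% of 32851 windows of all genes. Windows of the same gene can overlap and count a site more than once, as those of Ogdh and Aldoa did. A share by gene over all genes was not taken, so the counts of members have no background here. Another motif, AAGGTCA, a site of estrogen-related receptors, was again searched on both strands. It was found for 3 members (Eno1, Ogdh and Tpi1), in 3 of 55 member windows beside 4.72% of all windows. A match is a description of the letters and not a shown binding site.

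Among the 14 glycolytic enzymes, none passed between lines in either region, where 5.94% of all genes passed in Ce and 2.66% in St. Hk2, which phosphorylates glucose at the mitochondrial surface, came nearest. Its counts were 727, 811, 763 and 773 in CeCo and 950.3, 975, 1048 and 823 in CeHi, without overlap (log2 fold change 0.30, SE 0.088, limma adjusted P-value 0.054). It passed in 6 of 12 alternative fits with all samples, edgeR among them (adjusted P-value 0.0296). By limma it also passed when CeHi replicate 3 (0.0201) or StCo replicate 3 (0.044) was left out. In St the counts were 145, 159, 148 and 177 in StCo and 154, 157 and 139.9 in StHi, with a log2 fold change of -0.06 (95% interval -0.26 to 0.14). The difference between those effects, 0.36, did not pass (adjusted P-value 0.322).

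The other glycolytic enzymes had log2 fold changes between lines from -0.09 (Pfkm, muscle-type phosphofructokinase) to 0.12 (Pgk1, phosphoglycerate kinase) in Ce. In St they ranged from -0.08 (Pgam1, phosphoglycerate mutase) to 0.12 (Aldoc, aldolase C). Tpi1, triose phosphate isomerase, did not overlap between CeCo and CeHi, with counts of 21739.6, 21589, 22138 and 21815 in CeCo and 22649, 22410.5, 23019.5 and 26347 in CeHi. CeHi replicate 3 was the highest of them, and the log2 fold change of 0.11 did not pass (adjusted P-value 0.305). Gapdh, often used as a reference gene, differed by 0.10 in Ce and -0.02 in St (adjusted P-values 0.448 and 0.941).

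The lactate dehydrogenase subunits did not pass between lines. Ldhb, the heart-type subunit, had counts of 14618, 13916, 14523 and 14316 in StCo and 15592, 14909 and 15038 in StHi, without overlap, and a log2 fold change of 0.08 (95% interval -0.04 to 0.20, adjusted P-value 0.586). Ldha, the muscle-type subunit, had 11485, 11837, 11476 and 11979.6 in StCo and 11823, 10139.9 and 11139.5 in StHi, with overlap (log2 fold change -0.09, adjusted P-value 0.688). In Ce the log2 fold changes were 0.02 for Ldha and 0.02 for Ldhb.

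In the pyruvate dehydrogenase complex, the substrate of the kinases, the gene with the largest line difference was Dlat, the acetyltransferase subunit. Its counts in St were 4285, 4516, 4319.7 and 4348 in StCo and 4043, 3804 and 4122 in StHi, without overlap (log2 fold change -0.13, SE 0.046, adjusted P-value 0.168). In Ce they were 5057, 5057, 4807 and 4802 in CeCo and 4645, 4824, 4568 and 4722 in CeHi, with overlap (-0.07, adjusted P-value 0.378). Over both regions the log2 fold change of -0.10 had a limma adjusted P-value of 0.0559, just short of the threshold. Pdha1 and Pdhb, the subunits of the decarboxylase, and Dld, the dehydrogenase shared with the 2-oxoglutarate complex, had log2 fold changes from -0.06 to 0.08 in the same comparisons. Pcx, which makes oxaloacetate from pyruvate and is largely astrocytic in brain, had -0.01 in Ce and 0.15 in St (adjusted P-values 0.947 and 0.424).

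Among the 13 TCA cycle genes, Suclg2, the GTP-forming subunit of succinyl-CoA ligase, had the largest line difference. Its counts were 653, 736, 740.2 and 673 in CeCo and 869, 709.9, 930.0 and 922 in CeHi. In St they were 884, 875, 772 and 789 in StCo and 876, 985 and 867 in StHi. CeHi replicate 1 lay among the CeCo samples, and the St groups also overlapped. The log2 fold change was 0.29 in Ce (SE 0.086, adjusted P-value 0.0596) and 0.13 in St (SE 0.092, adjusted P-value 0.6). In Ce it passed without CeHi replicate 1 (0.00609). Over both regions Suclg2 was 1.16-fold higher in Hi (log2 fold change 0.21, SE 0.063) and passed narrowly by limma (adjusted P-value 0.0498). That call was lost with a pseudocount of 0.1, a minimum CPM of 10 or plain moderation (adjusted P-values 0.0508, 0.0543 and 0.0654). It was also lost when any of 12 libraries was left out (adjusted P-values 0.0508 to 0.134), and was kept without CeCo replicate 2, CeHi replicate 1 or StCo replicate 0. Of the 50-base stretches of its exons, 16% also occur in the pseudogene Gm15163. Its partner Sucla2, the ATP-forming subunit, had log2 fold changes of -0.03 in Ce and -0.02 in St.

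The remaining TCA cycle genes had log2 fold changes from -0.03 (Idh3g) to 0.12 (Idh3a) in Ce and from -0.07 (Idh3a) to 0.17 (Idh2) in St, and none passed. Idh3a and Idh3g are subunits of the NAD-dependent isocitrate dehydrogenase of the cycle, and Idh2 is the NADP-dependent mitochondrial form. Idh3b, the third subunit, did not overlap between CeCo and CeHi, with counts of 9974, 9649, 10000.4 and 9857 in CeCo and 10327, 10306, 10396 and 10943 in CeHi (log2 fold change 0.09, adjusted P-value 0.278).

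**Figure D2:**
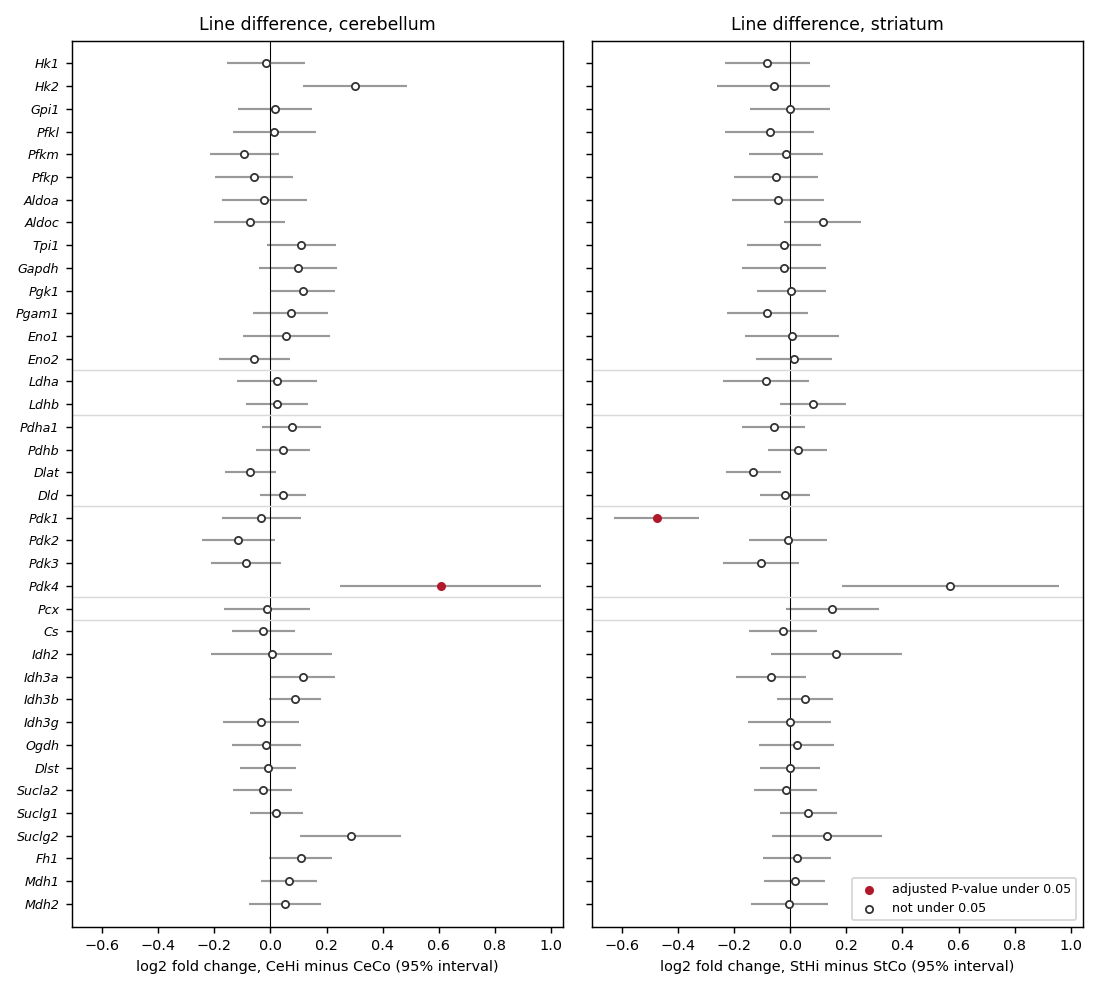
Log2 fold change of Hi against Co (horizontal axis, with 95% intervals from limma) for each of the 38 members in Ce (left) and St (right), ordered by role, with filled points for an FDR-adjusted P-value under 0.05. Pdk4 in Ce and Pdk1 in St are the filled points, and 37 intervals in Ce and 36 in St lie within 0.5 of 0.

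Over all 38 members, the median log2 fold change between lines was 0.02 in Ce and -0.01 in St, where the medians over all genes tested were -0.00214 and -0.00464. In Ce the 95% interval lay within 0.5 of 0 for 37 members, all but Pdk4, and in St for 36, all but Pdk1 and Pdk4. Over all genes tested the share was 75.6% in Ce and 74.9% in St. At an unadjusted P-value under 0.05 there were 5 members in Ce, where 19.7% of all genes reached it, and 3 in St, where 14.1% did. The groups did not overlap for 3 members in Ce (Hk2, Tpi1 and Idh3b, all higher in Hi), where 13.6% of all genes did not overlap (6.56% higher and 7.03% lower in Hi). In St they did not overlap for 4 members (Ldhb and Pdk4 higher, Dlat and Pdk1 lower in Hi), where the share of all genes was 13.1% (6.74% higher and 6.38% lower in Hi). Averaged over both regions, 3 of 38 members passed, where 8.48% of all genes did (4.34% higher and 4.14% lower in Hi).

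The difference of the line effect between Ce and St passed for 0 of 38 members by limma, where 0.532% of all genes passed. It reached an unadjusted P-value under 0.05 for 4 members (Pdk1, Hk2, Idh3a and Aldoc), where 9.56% of all genes did. By edgeR and by DESeq2 on recovered fragments 1 member passed (Pdk1), where 0.657% and 1.82% of all genes did. Among limma fits that left out 1 library, Pdk1 passed without StCo replicate 2 (adjusted P-value 0.0214) and without StHi replicate 0 (0.0286).

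Of the listed cell type markers, Cbln1 was the only one that passed between lines within a region. In St, 1 of 6 granule cell markers passed, Cbln1, higher in StHi (log2 fold change 0.51, limma adjusted P-value 0.0262). Its line effect also differed between regions (-0.80, adjusted P-value 0.0358). The other granule cell markers ran from -0.29 (Neurod1) to 0.12 (Cbln3) in St, and the summed counts of the list overlapped between lines in both regions. In St the summed counts of 6 oligodendrocyte markers were 197233 to 285735 in StCo and 300492 to 340927 in StHi, without overlap, with 0 of 6 markers called. The 4 blood markers summed to 729 to 1178 in StCo and 1362 to 1476 in StHi, without overlap. The 4 choroid plexus markers summed to 215 to 745 and 714 to 15976, with overlap. In each of these lists 0 markers were called. In Ce the 8 medium spiny neuron markers summed to 8249 to 9778 in CeCo and 10468 to 11616 in CeHi, without overlap and with 0 of 8 called. The summed choroid plexus markers spread widely within both Ce groups (1041 to 114230.0 in CeCo and 707 to 109230.0 in CeHi). The sums for astrocyte, microglia and endothelial markers overlapped between lines in both regions. For single genes, the lines did not overlap for 13.6% of all genes in Ce and 13.1% in St. No such share was taken over sums, so a sum without overlap is not shown to be a line difference. None of the markers in the table was at 0 in the groups, and the part of any of these cells in the differences of Pdk1, Pdk4, Hk2 or Suclg2 was not tested.

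Between the regions, 28 of 38 members passed (13 higher in Ce and 15 higher in St), where 80.2% of all genes tested passed (40.6% higher in Ce and 39.6% higher in St). The members' share was 73.7%. Of the 14 glycolytic enzymes 3 passed as higher in Ce and 7 as higher in St. Of the 13 TCA cycle genes 6 passed as higher in Ce and 3 as higher in St, and of the 4 pyruvate dehydrogenase complex genes 3 and 1. A difference between roles was not tested. The Ce and St samples did not overlap for 19 members (13 higher in Ce and 6 higher in St), where 55.1% of all genes did not overlap (27.1% higher in Ce and 28% higher in St). With quantile normalization in place of TMM, the split over the members changed to 18 higher in Ce and 11 higher in St, while the median over all genes moved from 0.011 to 0.095 on the log2 scale.

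**Figure D3:**
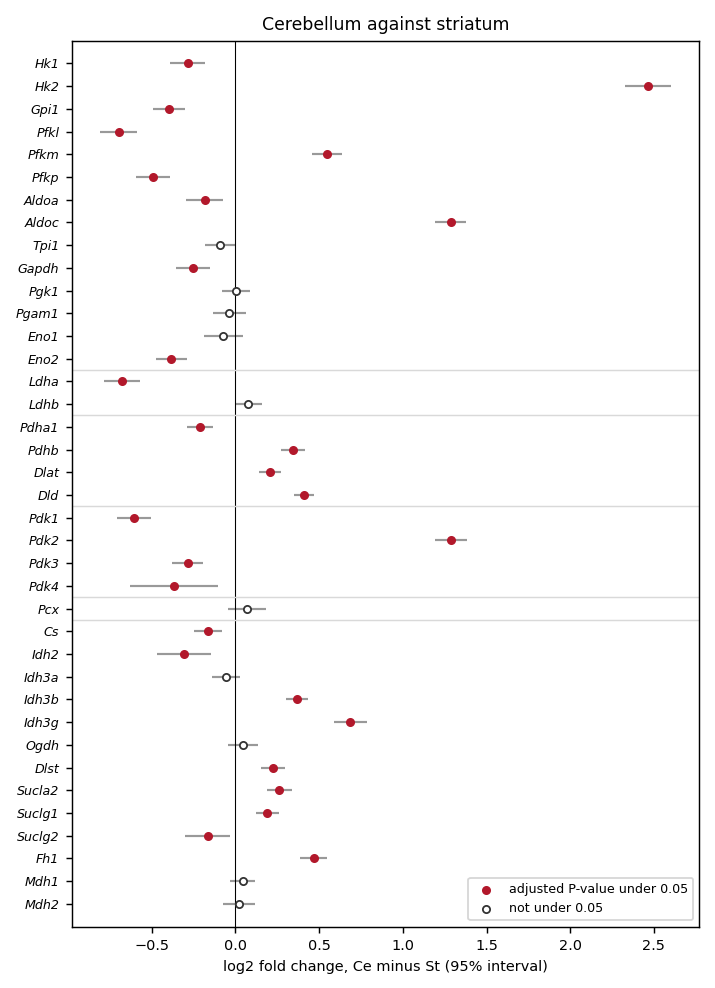
Log2 fold change of Ce against St (horizontal axis, with 95% intervals from limma) for the 38 members, ordered by role, with filled points for an FDR-adjusted P-value under 0.05. Hk2 lies farthest to the right at 2.46, followed by Pdk2 and Aldoc, and Pfkl, Ldha and Pdk1 lie farthest to the left.

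Hk2 had the largest region difference of the members. Its counts were 727 to 1048 in the 8 Ce libraries and 139.9 to 177 in the 7 St libraries, as listed above (log2 fold change 2.46, SE 0.065, limma adjusted P-value 7.89e-16). Hk1, the main brain hexokinase, had counts of 13029, 13852, 14105 and 12072 in StCo, 13323, 11025 and 13352 in StHi, 11131, 11022, 10427 and 9939.6 in CeCo and 10688, 10489.5, 10277 and 10539.6 in CeHi. It was 1.22-fold higher in St (log2 fold change -0.29, adjusted P-value 3.73e-05). Per kilobase of exon, Hk1 was at 1246 and Hk2 at 129 normalized counts in CeCo, and at 1555 and 26.3 in StCo. The log2 ratio of Hk2 to Hk1 was -6.57 to -6.09 in StCo, -6.58 to -6.13 in StHi, -3.94 to -3.68 in CeCo and -3.68 to -3.29 in CeHi. The ratio was thus 6.77-fold higher in Ce, and the CeHi samples lay above the CeCo samples by a narrow gap, which was not tested. An annotated antisense transcript, Gm17034, overlaps Hk2, and the counting is not stated to use strand.

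Phosphofructokinase, which commits hexose phosphate to glycolysis, had a different subunit balance in the regions. Pfkl, the liver-type subunit, had counts of 5449, 5929.9, 6289 and 5309 in StCo, 5908, 4908 and 5576 in StHi, 3612, 3073, 3666 and 3384 in CeCo and 3363, 3487, 3522 and 3468 in CeHi. The St samples all lay above the Ce samples (log2 fold change -0.70, SE 0.051, adjusted P-value 9.06e-10). Pfkm had counts of 14480.1, 14594, 16050.5 and 13602 in StCo, 15411, 13709 and 14484 in StHi, 22993, 22352, 21791 and 21061 in CeCo and 20695, 19462, 21720.4 and 20832 in CeHi, all Ce samples above all St samples (log2 fold change 0.55, adjusted P-value 1.95e-09). Pfkp, the platelet type, had 13211, 11597, 12183 and 12289 in StCo, 13031, 10595 and 12163 in StHi, 9611, 8507, 8445 and 8587 in CeCo and 8297, 8875, 8592 and 7984 in CeHi, and was higher in St by 1.41-fold (log2 fold change -0.49, adjusted P-value 5.18e-08). The log2 ratio of Pfkm to Pfkl was 2.57 to 2.86 in CeCo and 1.30 to 1.41 in StCo, while that of Pfkp to Pfkl overlapped between regions (means 1.36 and 1.1). Part of the Pfkm locus overlaps Senp1, and part of the Pfkp locus overlaps Pitrm1.

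Of the aldolases, Aldoc differed the more between regions. Aldoc had counts of 27261, 25751, 27206 and 24203 in StCo, 30651, 28376 and 25914 in StHi, 68282, 70002, 67546 and 66195 in CeCo and 60882, 63134, 66257 and 68229 in CeHi, so every Ce sample had more than 30651, the highest St value (log2 fold change 1.29, SE 0.044, adjusted P-value 2.49e-14). Aldoa, the muscle-type aldolase, had 60464, 56190.4, 62570.5 and 54776 in StCo, 60909.7, 50371 and 59466 in StHi, 56347, 47288, 49897 and 51056 in CeCo and 48745, 47417, 51639 and 53379.7 in CeHi, and the regions overlapped. It passed as 1.14-fold higher in St (log2 fold change -0.18, adjusted P-value 0.00405), a direction that turned to 0.04 with quantile normalization (adjusted P-value 0.548). The log2 ratio of Aldoc to Aldoa was -1.20 to -1.13 in StCo, -1.20 to -0.83 in StHi, 0.28 to 0.57 in CeCo and 0.32 to 0.41 in CeHi. Per kilobase of all annotated exons, Aldoc exceeded Aldoa in CeCo (20842 and 17570.3). With the longest transcript as the length the order was reversed (24410.0 and 33019.5), so the order of these levels is not settled by these counts.

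The other glycolytic enzymes differed little or were higher in St. Gapdh, the dehydrogenase of glyceraldehyde 3-phosphate, and Gpi1, the isomerase that follows hexokinase, were 1.19-fold and 1.32-fold higher in St (log2 fold changes -0.25 and -0.40, adjusted P-values 0.000118 and 3.72e-07). With quantile normalization the call of Gapdh was lost (adjusted P-value 0.344). Eno2, the neuronal enolase, had 47669.7, 47223, 50199.8 and 45626 in StCo, 50673, 45228 and 48651 in StHi, 38596, 37971, 35598 and 37626 in CeCo and 34372, 33721, 36193 and 39942 in CeHi, all St samples above all Ce samples (log2 fold change -0.38, adjusted P-value 3.09e-07). Eno1, the enolase of most tissues, had 14696, 15274, 16679 and 13926 in StCo, 16436, 13958 and 15265 in StHi, 15630.3, 12774, 14337 and 13948 in CeCo and 14092, 13704, 15645 and 15427 in CeHi, with overlap (log2 fold change -0.07, adjusted P-value 0.229). The call of Eno2 was lost with quantile normalization (adjusted P-value 0.122). Their log2 ratio, Eno2 to Eno1, was 1.59 to 1.71 in StCo and 1.30 to 1.57 in CeCo, without overlap between regions. Tpi1, Pgk1 and Pgam1 did not pass either, with log2 fold changes of -0.09, 0.00312 and -0.04 (adjusted P-values 0.0549, 0.944 and 0.483). Tpi1 passed as higher in St in 6 of 12 alternative fits with all samples. By limma it also passed without CeHi replicate 3 (adjusted P-value 0.006) and without StHi replicate 1 (0.0209).

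Ldha was the lactate dehydrogenase gene that differed between regions. Its counts were 11485, 11837, 11476 and 11979.6 in StCo, 11823, 10139.9 and 11139.5 in StHi, 7483, 6187, 6860.1 and 7708 in CeCo and 6651, 7081, 7367 and 7549.8 in CeHi, and every St sample lay above every Ce sample (log2 fold change -0.68, SE 0.05, adjusted P-value 9.61e-10). Ldhb had 14246, 15352, 16635 and 15538 in CeCo and 15606, 14728, 16010.0 and 16379 in CeHi beside the St values given above, with overlap (log2 fold change 0.08, adjusted P-value 0.0777). It passed as higher in Ce without CeCo replicate 0 (0.0239) and without CeHi replicate 1 (0.0336). The log2 ratio of Ldhb to Ldha was 0.23 to 0.35 in StCo, 0.40 to 0.56 in StHi, 0.93 to 1.31 in CeCo and 1.06 to 1.23 in CeHi. It was 1.69-fold higher in Ce. In St the Hi samples lay above the Co samples, and in Ce the lines overlapped. Of the isoenzyme pairs, this one in St and Hk2 to Hk1 in Ce were the only ones without overlap between lines. For single genes, the lines did not overlap for 13.6% in Ce and 13.1% in St. The ratios were not tested, and a share over other pairs of genes was not taken.

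**Figure D4:**
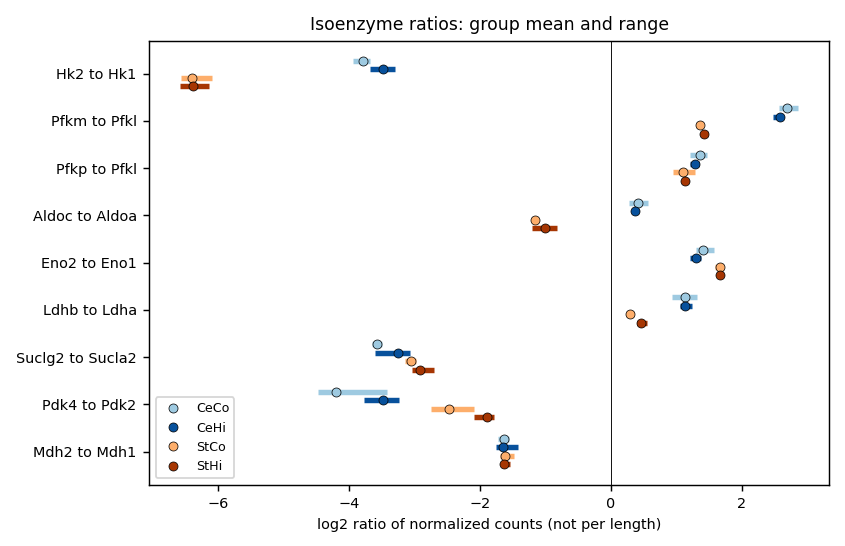
Log2 ratio of the normalized counts of isoenzyme pairs (horizontal axis, not corrected for length), with the mean of each group as a point and its range over samples as a bar. The bars of Ce and St are separate for Hk2 to Hk1, Pfkm to Pfkl, Aldoc to Aldoa, Eno2 to Eno1, Ldhb to Ldha and Pdk4 to Pdk2, and they overlap for Pfkp to Pfkl, Suclg2 to Sucla2 and Mdh2 to Mdh1.

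The kinases of pyruvate dehydrogenase also divided between regions. Pdk2 was higher in Ce (log2 fold change 1.29, SE 0.045, adjusted P-value 3.74e-14), with at least 7298 in every Ce library and at most 3394 in every St library. Pdk1, Pdk3 and Pdk4 were higher in St, with log2 fold changes of -0.61, -0.28 and -0.37 (adjusted P-values 3.63e-09, 1.22e-05 and 0.0129). Per kilobase of exon in CeCo, Pdk2 was at 2601, Pdk3 at 453, Pdk1 at 155 and Pdk4 at 132 normalized counts. In StCo the values were 1025, 555, 276 and 167. In CeHi they were 2398, 426, 152 and 195, and in StHi 1019, 516, 199 and 248. Pdk2 was first and Pdk3 next in all 4 groups. Pdk1 lay above Pdk4 in both Co groups and below it in both Hi groups, but with the longest transcript as the length it lay above Pdk4 in all 4. The log2 ratio of Pdk4 to Pdk2 was -2.74 to -2.09 in StCo, -2.09 to -1.79 in StHi, -4.48 to -3.42 in CeCo and -3.78 to -3.24 in CeHi, so that the ratio was 3.15-fold higher in St and the lines overlapped in both regions.

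The 4 genes of the pyruvate dehydrogenase complex all passed between regions, and not in the same direction. Pdhb, Dlat and Dld were higher in Ce (log2 fold changes 0.34, 0.20 and 0.41, adjusted P-values 4.57e-08, 1.27e-05 and 5.94e-10), and Pdha1, which carries the sites the kinases phosphorylate, was lower in Ce (-0.21, adjusted P-value 3.97e-05). Pdha1 had means of 9072 ± 223 in CeCo and 11020.0 ± 315 in StCo (SD, n = 4), and Pdhb had 6714 ± 108 and 5323 ± 192. The subunits of the decarboxylase thus lay on opposite sides between regions. Pcx did not pass (0.07, adjusted P-value 0.251).

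In the TCA cycle, Idh3g had the largest region difference, 1.61-fold higher in Ce, with means of 6369 ± 272 in CeCo and 3921 ± 357 in StCo (log2 fold change 0.69, SE 0.047, adjusted P-value 4.2e-10). Idh3b was also higher in Ce (0.37, adjusted P-value 9.97e-09), while Idh3a, the catalytic subunit of the same enzyme, did not pass (-0.06, adjusted P-value 0.187). Fh1, fumarase, Dlst, the succinyltransferase of the 2-oxoglutarate complex, and Suclg1, the common subunit of succinyl-CoA ligase, were higher in Ce by log2 fold changes of 0.47, 0.22 and 0.19 (adjusted P-values 5.56e-09, 1.17e-05 and 4.45e-05). Cs, citrate synthase at the entry of the cycle, and Idh2 were higher in St (-0.17 and -0.31, adjusted P-values 0.000911 and 0.00126), and the call of Cs was lost with quantile normalization (adjusted P-value 0.441). Ogdh, the 2-oxoglutarate decarboxylase, and the malate dehydrogenases Mdh1 and Mdh2 did not pass, with log2 fold changes of 0.05, 0.04 and 0.02.

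The partner subunits of succinyl-CoA ligase were on opposite sides. Sucla2 had counts of 7109, 6922, 6614 and 6945 in StCo, 7208, 6379 and 6887 in StHi, 8212, 8272, 8443 and 8288 in CeCo and 8341, 8624, 7893 and 7740.2 in CeHi, with every Ce sample above every St sample (log2 fold change 0.26, adjusted P-value 3.64e-06). Suclg2 was higher in St (-0.17, adjusted P-value 0.0226), and that call was lost without CeCo replicate 0 (0.0502) and without StHi replicate 1 (0.0703). The log2 ratio of Suclg2 to Sucla2 was -3.14 to -2.98 in StCo, -3.04 to -2.70 in StHi, -3.65 to -3.49 in CeCo and -3.60 to -3.07 in CeHi, with overlap between CeHi and StCo. For malate dehydrogenase, the cytosolic Mdh1 had 32732, 32311, 30364 and 30984 in StCo, 33738, 30936 and 31200.5 in StHi, 30898, 31176, 33289 and 32612 in CeCo and 34208, 33490.3, 33699.9 and 32497 in CeHi. The mitochondrial Mdh2 had 10256, 10598, 10866 and 9593 in StCo, 10516, 9727 and 10681 in StHi, 10468, 10239, 10064 and 10270.0 in CeCo and 10092, 10022, 10490.3 and 12096 in CeHi. Their ratio overlapped between all 4 groups.

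In each of the 4 groups, Hk2, Suclg2, Pdk4 and Pdk1 were the 4 lowest members per kilobase of exon, in differing order, by either measure of length. Hk2 was at 26.3 normalized counts per kilobase in StCo, 25.2 in StHi, 129 in CeCo and 159 in CeHi, and Suclg2 at 179 in StCo and 152 in CeCo. At the upper end in StCo were Aldoa (20096), Gapdh (16883) and Mdh1 (12309) by exon union. The 3 members that passed between lines over both regions, Pdk1, Pdk4 and Suclg2, were thus among the lowest per length.

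Within a group, the members tended to move together from sample to sample. StHi replicate 1 was the lowest of the 3 StHi samples for 31 of 38 members, where it was lowest for 33.6% of all genes tested, and StHi replicate 0 was the highest for 26, where the share of all genes was 37.8%. StCo replicate 3 was the lowest of 4 for 21 members, where the share of all genes was 24.9%, and CeHi replicate 3 was the highest of 4 for 20, where the share was 34.3%. The members' median log2 deviation from the group mean was -0.07 in StHi replicate 1, 0.075 in StHi replicate 0, -0.06 in StCo replicate 3 and 0.06 in CeHi replicate 3. Over all genes tested the median deviation lay between -0.00513 and 0.00747 in every library. For size, the median SE of a line difference was 0.059 in Ce and 0.064 in St. The distance run by single mice is not given in the labels.

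**Figure D5:**
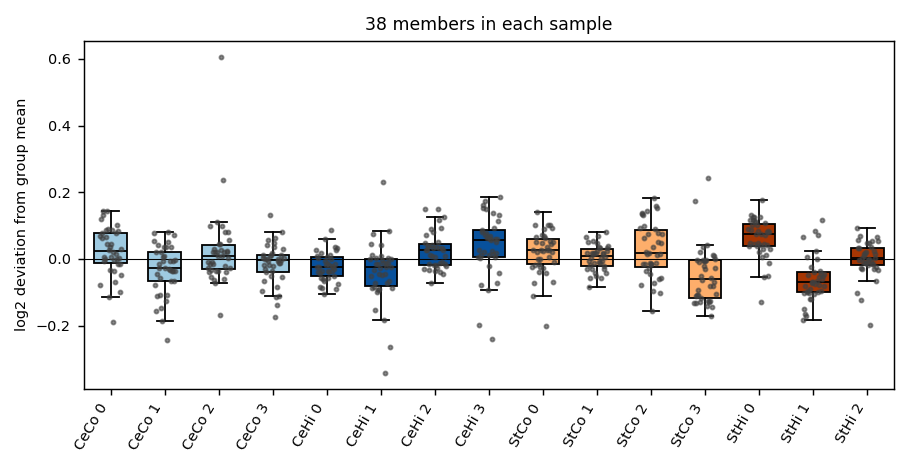
Log2 deviation of each of the 38 members from its group mean (vertical axis) in each of the 15 samples, with boxes for the quartiles and median and points for single members. The boxes of StHi replicate 1 and StCo replicate 3 lie mostly below 0, those of StHi replicate 0 and CeHi replicate 3 mostly above, and the point near 0.6 in CeCo replicate 2 is Pdk4.

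Other genes of these pathways were taken as a list of 74, of which 64 passed the filter on low values. Between lines in Ce, 2 of the 64 passed, where 5.94% of all genes did, and both were higher in Hi. They were Gbe1, the glycogen branching enzyme (log2 fold change 0.38, adjusted P-value 0.00638), and Sdhc, a membrane subunit of succinate dehydrogenase (0.23, adjusted P-value 0.0359). In St, 2 of the 64 passed, where 2.66% of all genes did. Pgm1, a phosphoglucomutase by the name in the table, was higher in Hi (0.45, adjusted P-value 0.0234), and Hkdc1, a hexokinase-like gene of low level, was lower (-1.48, adjusted P-value 0.0263), with mean counts of 144 in StCo and 50.7 in StHi. The line effect differed between regions for 0 of 64 by limma, and for 4 at an unadjusted P-value under 0.05, where 9.56% of all genes reached it.

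Averaged over both regions, 10 of the 64 passed (15.6%, where 8.48% of all genes did), and all 10 were higher in Hi. They included the glycogen genes Gbe1 (0.28), Pgm1 (0.29), and the glycogen phosphorylases Pygb (0.16) and Pygl (0.43), Sdhc (0.22), the carriers Slc16a1 (0.21) and Slc2a5 (0.40) for lactate and fructose, Ldhd (0.35), the D-lactate dehydrogenase, and Taldo1 (0.15), transaldolase of the pentose phosphate pathway. All 10 had limma adjusted P-values between 0.00499 and 0.0389. Of the 8 glycogen genes, 4 passed, and all 8 had log2 fold changes above 0 in both regions, with a median of 0.11 in Ce and 0.20 in St. Of all genes tested, 49.4% were above 0 in Ce and 48.3% in St. This list was picked out from the related lists after its values were seen, and the lean was not tested. Pdp1 and Pdp2, the phosphatases that undo the kinases' work, did not pass between lines (adjusted P-values 0.433 and 0.638).

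Between regions, 51 of the 64 related genes passed (23 higher in Ce and 28 higher in St), a share of 79.7% beside 80.2% of all genes. The largest differences were those of Slc2a4, the insulin-responsive glucose transporter (2.90), and Pygm, muscle-type glycogen phosphorylase (1.73), on the Ce side, and of Slc2a5 (-2.79) and Slc16a3, a lactate carrier (-2.57), on the St side. Slc2a5 is a microglial gene in brain, and 5 of 5 microglia markers were also higher in St. Opposite to Pdk2, Pdp1 was lower in Ce (-1.75, adjusted P-value 1.05e-12), while Pdp2 was higher (0.78, adjusted P-value 1.09e-09).

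For 9 of the 38 members, over 10% of the 50-base stretches of their exons also occur in other annotated genes, many of them processed pseudogenes. The shares were 53.9% for Pgk1, 36.2% for Pgam1, 26% for Eno1, 25.1% for Gapdh (213 pseudogenes), 21% for Ldhb, 16% for Suclg2, 15.8% for Gpi1, 12.9% for Pdha1 and 11.4% for Pdhb. The levels of these 9 are uncertain to the extent that fragments were divided among copies. The share was 0 for Pdk1, Hk2, Pdk2, Aldoc and Dlat, and 1.40% for Pdk4. An annotated gene overlaps 17 of the members in position, Pdk2, Hk2 and Pfkm among them.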

How the data were processed

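RNA-seq of whole Ce and St from Hi and Co mice was analysed in 15 samples, which the study describes as separate mice within a group. P-values of a line difference within a region thus rest on the spread between mice. That spread was 1 estimate per gene, shared by the Ce and St groups, except where each region was fitted alone. A P-value in Ce thus also depends on the St libraries, and one in St on the Ce libraries. The joint fit treated all 15 libraries as separate. If a mouse gave both regions, its P-values do not allow for it. The authors aligned reads to GRCm38 (mm10) with TopHat2 and deposited 1 table from Cuffnorm 2.2.1. Its name says FPKM, but the deposited values are a library-scaled signal, the fragment count per gene divided by a size factor per library. At least 99.5% of values under 100 were whole multiples of 1 fragment within 0.1, and 1 fragment was worth 0.841 to 1.30. Totals were 38499264 to 43669012 normalized counts per sample. Whether counting used strand is not given in the sources used here.

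From these, values were scaled by TMM factors, and limma 3.58.1 (R 4.3.3) was run on log2(value + 1) with 1 mean per group, trended and robust moderation, and Benjamini-Hochberg adjustment over 15213 genes with a CPM of at least 1 in at least 3 samples. The line effect in Ce, in St, its mean over regions, its difference between regions, and the region effect were tested. A fold change on this scale is slightly understated for low genes. As alternatives, edgeR 4.0.16 and DESeq2 1.42.0 were run on the recovered fragments, beside other pseudocounts, filters, scalings, moderation, sample weights, replicate blocks, each region alone and leaving out each sample. The limma fit was also tested on simulated data.

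The members and all lists were chosen with earlier results of these data known. Values by sample were given for members that passed between lines, the 3 largest region differences in each direction and isoenzyme pairs. Other members named were those without overlap or at the end of a range, and they were chosen after their values were seen. Lengths were the union of annotated exons. Ldhb and 8 others share sequence with other genes, as given above. Some related and marker genes are not reported here by name.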

Additional observations from a re-analysis of the deposited data

Results flagged for a closer look

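In 10 of 114 groups of 4 samples (38 members in CeCo, CeHi and StCo), 1 sample lay so far from the other 3 that its gap exceeded 0.829 of the group's range, the 95% critical value of Dixon's test. For independent groups of normally distributed values, such a gap arises in about 1 of 20. The members come from the same libraries and tended to move together, and a rate over all genes was not taken. The count of 10 thus has no background here. CeHi replicate 3 accounted for 5 of the 10. Over all genes tested, it was the highest CeHi sample for 34.3% and the lowest for 30.2%. It was the highest CeHi sample for Tpi1 at 26347 normalized counts, where the others reached at most 23019.5, for Idh3b at 10943 (others at most 10396), for Pdhb at 7246 (others at most 6835) and for Pdk3 at 1134 (others at most 1081). It was the lowest for Dld at 7407, where the others had at least 7546. This library was also the one that stood apart toward St on the first principal component, and the part of that in these values was not tested.

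CeCo replicate 2 had 682 counts for Pdk4 where the other CeCo samples had at most 396, and CeCo replicate 1 had 1106 for Pdk1 where the others had at least 1237. CeCo replicate 0 had 9611 for Pfkp, above 8587 in the next. StCo replicate 3 had 2937 for Pdk2, below 3319 in the next, and CeHi replicate 1 had 1033 for Idh2, below 1391. Among these, the Pdk4 value bears on a call, since leaving out CeCo replicate 2 moved the log2 fold change in Ce from 0.61 to 0.81.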

How the results depend on the processing

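Of 13 alternatives with all samples and 15 fits that left out 1 library, Pdk1 in St kept its call in each of the 12 that applied (log2 fold change -0.52 to -0.46) and in all 15 leave-one-out fits (-0.54 to -0.42). Over both regions Pdk1 and Pdk4 also kept theirs in each fit, and counts of members stayed within 2 to 4 for that comparison and 28 to 29 for the regions. The count in Ce (1, Pdk4, beside 5.94% of all genes) became 2 with no further scaling (5.78%) and 3 with sample quality weights (7.13%). It became 3 by DESeq2 (9.14%) and 0 with the replicate block (6.23%). It ranged from 0 to 2 in leave-one-out fits, at 0 without CeCo replicates 0, 1 or 3, CeHi replicates 0 or 2, StCo replicates 1 or 2, or StHi replicate 1, and at 2 without CeHi replicate 3 or StCo replicate 3. Plain moderation, each region fitted alone and edgeR called Hk2 in place of Pdk4 (Pdk4 adjusted P-values 0.066, 0.0928 and 0.0653). The count in St (1, Pdk1, beside 2.66% of all genes) became 2 with each region fitted alone (1.98%) and 2 by DESeq2 (4.66%), with Pdk4 added in both. It ranged from 1 to 2 in leave-one-out fits (2 without CeCo replicate 2). For the difference between regions the count (0) became 1 with sample quality weights, 1 by edgeR and 1 by DESeq2, and ranged from 0 to 1 (1 without StCo replicate 2 or StHi replicate 0). Region differences near 0 changed sign. Aldoa became 0.039 and Tpi1 0.049 with quantile normalization. Mdh2 (0.02) became -0.0015 with sample quality weights, -0.011 with the replicate block within line, and -0.0095 to 0.037 in leave-one-out fits. Pgk1 (0.0031) became -0.012 with a CPM of at least 10, -0.0033 with median-of-ratios scaling, -0.00047 with the replicate block within line, -0.0038 by DESeq2, and -0.022 to 0.034 in leave-one-out fits. Quantile normalization also ended the region calls of Cs, Eno2 and Gapdh and made those of Ldhb, Mdh1, Mdh2, Ogdh and Pgk1. The cause of these changes was not tested.

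Samples of the same number were not treated as pairs, because the correlation of their deviations in Ce and St was 0.171 to 0.278 in Co but -0.0751 to 0.0513 in Hi. With the replicate block, Pdk4 in Ce had an adjusted P-value of 0.077 and Suclg2 over both regions 0.0821, while Tpi1 passed between regions (0.0382). With 3 or 4 samples per group the median SE of a line difference of 0.059 to 0.064 on the log2 scale limits what could be detected, and depth limits the members little, since their lowest value was 139.9 normalized counts.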
